A study of Mus musculus with 19 samples.

Results

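The aldehyde dehydrogenase family was examined in lung RNA of MutaMouse males, adults of a strain with a bacterial reporter transgene for mutation assays, after oral exposure to polycyclic aromatic hydrocarbons. Members were the 10 genes Aldh1a1, Aldh1a2, Aldh1a3, Aldh1a7, Aldh2, Aldh3a1, Aldh3a2, Aldh3b1, Aldh1b1 and Aldh7a1, each found through the RefSeq identifier that the scanner files give for a probe. They held 12 of the 55681 probes on the array and 10 of its 20660 gene symbols. Of the 12 probes, 11 were bright enough to test among 30961 tested probes, and all 10 genes had a tested probe. The exception was 1 of the 2 probes of Aldh7a1, well above background in 2 of 18 mice.

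All mice were male, about 12 weeks old by the labels, and were gavaged daily for 28 days. Group D0 (5 mice) received olive oil alone. Groups D1 (4 mice), D2 (5 mice) and D3 (4 mice) received a defined mixture of 8 hydrocarbons in olive oil, at daily doses of 15, 30 and 60 mg per kg body weight, counted as benzo[a]pyrene equivalents. Lungs were taken 72 h after the last gavage, and RNA came from random sections of frozen tissue. Each of 19 arrays carried lung RNA in red (Cy5) against a common reference RNA from mouse cell lines in green (Cy3), so every value is a log2 ratio of lung over reference. Mouse 35 of D3 had 2 arrays, which were averaged.

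Some libraries need care. Mouse 23 is labelled D2, although its number lies among those of D1, and by the methods D1 had 1 more mouse and D2 1 fewer than labelled. It was kept in D2, and values without it are given where they change a result. The arrays lay on 3 slides of 8, 7 and 4 arrays that each held all groups, whereas the array column followed the dose on every slide, so that column and dose cannot be told apart. Median spot signals were 114 to 152 in red and 65.0 to 93.0 in green. Red spots were well above background for 54.5% to 64.7% of spots, and no spot was saturated. The lowest correlation between arrays over all probes, tested or not, was 0.927. Markers of lung epithelium were high in every group, with a mean log2 ratio in D0 of 5.05 to 5.63 for alveolar type 2 markers and of 3.55 to 4.69 for club cell markers.

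Aldehyde dehydrogenases oxidise aldehydes to carboxylic acids with NAD+ or NADP+. Class 1A enzymes turn retinaldehyde into retinoic acid, class 3 enzymes clear aromatic and fatty aldehydes, and the mitochondrial enzymes clear acetaldehyde and aldehydes from lipid peroxidation. In the lung the family is known from airway epithelium and, for Aldh1a2, from the mesothelium. Aldh3a1 is also a textbook member of the aryl hydrocarbon receptor (AHR) gene battery. AHR binds planar hydrocarbons and, with ARNT, recognises a DNA element with the core GCGTG. The question here was whether the family differed between doses, and how Aldh3a1 compared with other genes of the AHR battery in the same lungs.

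Sequence upstream of the start sites was taken from RefSeq promoter windows of build GRCm38.p6, which held 6 of the 10 members. Aldh1a3, Aldh2, Aldh3a1 and Aldh7a1 had no window, so whether Aldh3a1 holds the core was not looked at. The core GCGTG was searched on both strands of the 250 bases before each start. Of 32851 promoter windows, 28.2% held it, so a match is common. It was found in 2 of the 6 members, Aldh1a2 and Aldh3a2, and in 4 of 5 AHR target genes looked at for comparison (Cyp1a1, Cyp1b1, Ahrr and Tiparp, not Nqo1). The longer form TNGCGTG, which overlaps the core, was present in 4.1% of all windows. Among the sequences printed below, only that of Aldh3a2 holds it. The windows below, 45 bases each and written 5′ to 3′ on the gene's own strand, show the core with its flanks for both members beside the 2 most responsive AHR targets. Capitals mark the core, which in Cyp1b1 lies on the opposite strand and reads CACGC.
Aldh3a2 (chr11:61267279-61267323, minus strand): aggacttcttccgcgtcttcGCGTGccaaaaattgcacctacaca
Aldh1a2 (chr9:71215641-71215685, plus strand): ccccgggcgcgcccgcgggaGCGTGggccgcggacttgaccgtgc
Cyp1a1 (chr9:57697539-57697583, plus strand): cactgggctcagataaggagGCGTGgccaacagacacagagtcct
Cyp1b1 (chr17:79715113-79715157, minus strand): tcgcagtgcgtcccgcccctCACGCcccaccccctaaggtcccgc

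Aldh1a1 and Aldh1a7 are close paralogs that lie on the same chromosome. Their upstream sequence is shown because it displays how alike the 2 genes are. Of the 60 bases just before each start, 57 were identical and 3 differed, and the differing bases are in capitals.
Aldh1a1 (chr19:20601908-20601967, plus strand): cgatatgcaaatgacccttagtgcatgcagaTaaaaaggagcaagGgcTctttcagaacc
Aldh1a7 (chr19:20727557-20727616, minus strand): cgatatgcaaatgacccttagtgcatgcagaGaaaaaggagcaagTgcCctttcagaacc
Over the whole 250 bases, 177 of 259 aligned positions (68.3%) were identical, so that the likeness was closest next to the start. Probe sequences were not used here, and signal of 1 paralog on the other's probe cannot be told apart from its own.

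No member was called at any dose. A probe counted as called at a limma adjusted p of at most 0.05 over all 30961 probes (Benjamini-Hochberg) together with a change of at least 1.5-fold. By this rule 0 of 11 member probes were called at D1, D2 or D3, where 1.06%, 0.627% and 2.44% of all tested probes were called. A count of 0 of 11 lies near these background shares. Without the adjustment, 1 of 11 member probes was at p under 0.05 at each dose by limma, against 19.8%, 14.7% and 26.2% of all probes. Comparisons between doses gave the same count, with 0 of 11 called for D2 against D1 (background 0%), D3 against D2 (0.107%) and D3 against D1 (0.145%), 0 of 11 for a linear trend over dose (1.46%) and 0 of 11 by the F test over the 3 doses (7.8%). For D2 against D1 limma also called 0 of all probes, with 3041 at an unadjusted p under 0.05.

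The sizes of the changes were small for most members. Under the main normalization (loess within each array) the median log2 fold change of the 11 probes was 0.05 at D1, -0.08 at D2 and -0.06 at D3. Over all probes tested the median was 0.01, -0.004 and -0.002. At D3 the 11 changes ran from -0.46 to 0.21, with 5 above 0 and 6 below. The 95% confidence interval of the change lay within 1.5-fold either way for 8 of 11 probes at D3 and within 2-fold for 9. The 2 probes past the wider bound at D3 were those of Aldh1a2 and the second probe of Aldh3a1. For Aldh1a2 the data do not limit the change well, and for Aldh3a1 they do not limit a decrease well.

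**Figure D1:**
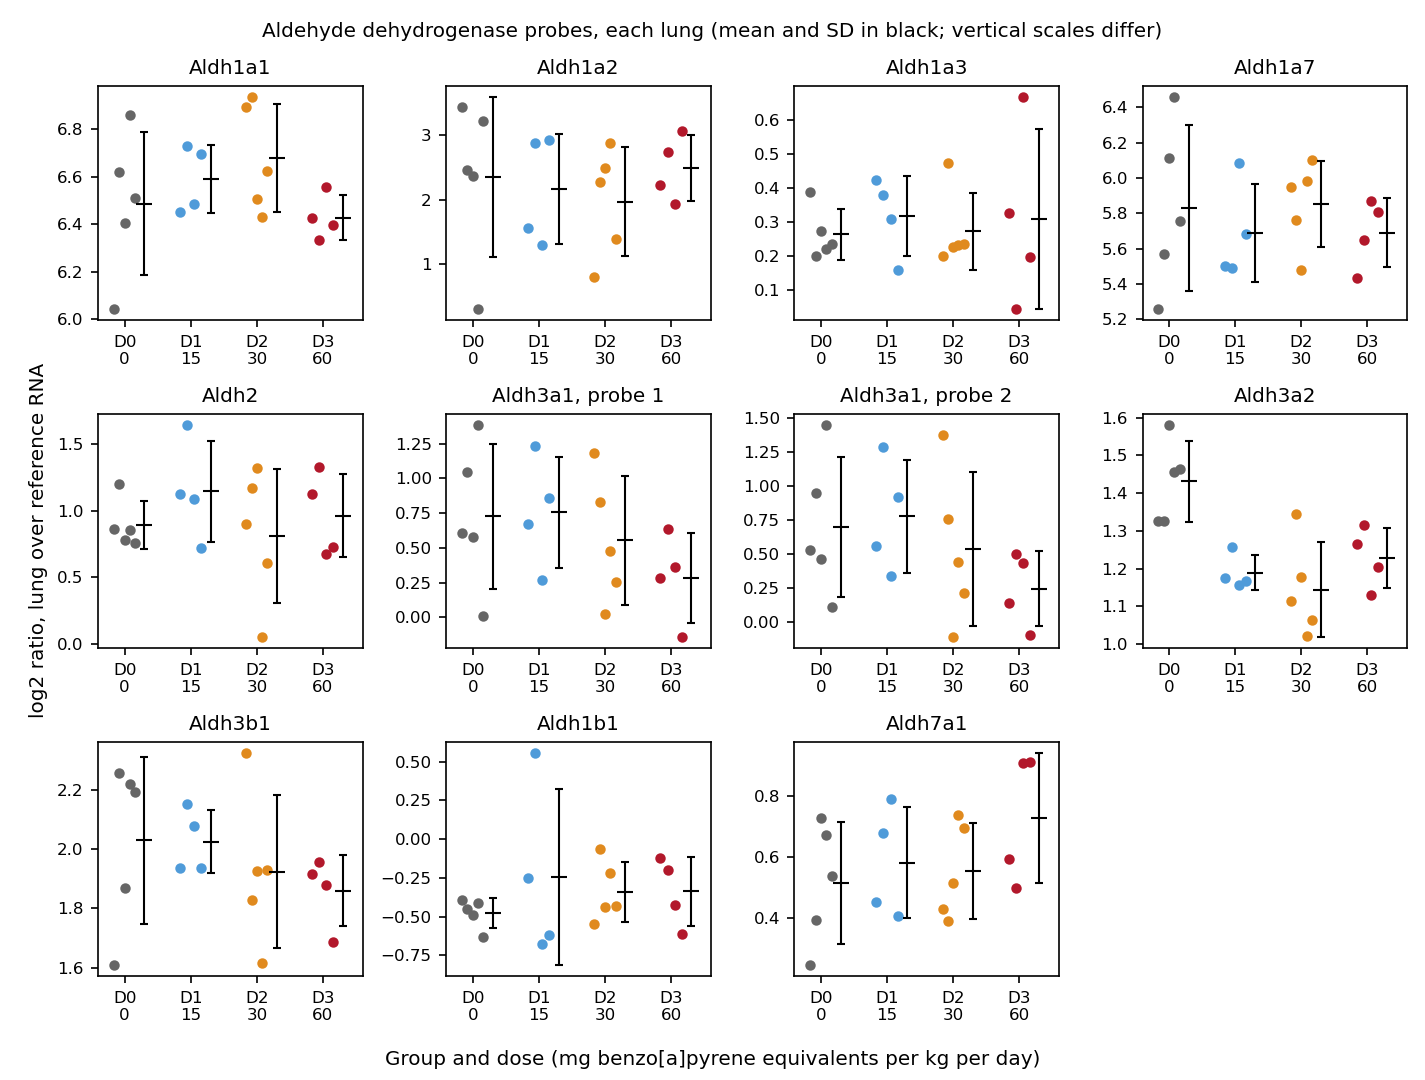
Log2 ratio of lung over reference RNA (vertical axis, own scale in each panel) for the 11 tested probes in each of 18 mice, by dose group (horizontal axis, with the daily dose in mg/kg as benzo[a]pyrene equivalents). Points are mice and the black bars give the mean and SD of the group. Aldh3a2 is the probe whose D1 and D3 mice all sit below the D0 mice, and Aldh1a2 has the widest scatter, from 0.30 to 3.44.

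Aldh3a1, the class 3 enzyme of the AHR battery that detoxifies aromatic aldehydes, was not called. Its 2 probes (NM_007436) are called the first and the second here, and they moved together over the 18 mice (r = 0.978). The second probe read 0.53, 0.95, 0.46, 1.45 and 0.11 in the D0 mice. It read 0.56, 1.29, 0.34 and 0.92 in D1, and 1.38, 0.76, -0.11, 0.44 and 0.22 in D2. In D3 it read 0.14, 0.50, 0.43 and -0.10. Every dose group overlapped D0, and the D0 mice alone covered a range of 1.34 on the log2 scale.

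The log2 fold change of the second probe at D3 was -0.46 ± 0.28 (SE), with a 95% confidence interval of -1.04 to 0.12 and a limma adjusted p of 0.312. The first probe gave -0.44, an interval of -0.99 to 0.10 and a limma adjusted p of 0.298. At D1 the 2 probes gave 0.03 and 0.08, and at D2 both gave -0.17. Without mouse 23, the highest D2 mouse, the second probe gave -0.38 at D2. With 1 mouse left out at a time the D3 change ran from -0.62 to -0.28 for the first probe and from -0.61 to -0.27 for the second. Under median centring in place of loess the D3 changes were -0.21 and -0.22. The upper ends of the D3 intervals under loess correspond to 1.07-fold and 1.09-fold, so an increase of 1.5-fold or more at D3 lay outside both. No interval under median centring is given. Within slides, the second probe differed between D3 and D0 by -0.42 on slide 1 and by -0.81 on slide 2. At D1 it differed by 0.18, -0.62 and 0.81 on slides 1, 2 and 3, and at D2 by -0.42, -0.63 and 1.26, so that the direction was not the same on all slides. Slide 3 held 1 mouse each of D0, D1 and D2 and the second array of mouse 35, which is left out of the within-slide values.

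Of the other genes of the AHR battery, Cyp1a1, Cyp1b1, Ahrr and Nqo1 were called higher at D3 and 5 tested genes were not. Cyp1a1, the monooxygenase that defines AHR activation, read 0.66 to 0.99 in D0. It read 0.43 to 4.01 in D1, 2.98 to 4.67 in D2 and 3.24 to 6.18 in D3. No D2 or D3 mouse overlapped the D0 mice, as in 4.11% and 14.6% of all tested probes, while 1 D1 mouse lay below them. The log2 fold changes were 1.29, 2.96 and 3.61, called at D2 and D3. Cyp1b1 (1.66, 2.42 and 2.68) and Ahrr, the receptor's own repressor (1.504, 1.79 and 1.84, well above background in 14 of 18 mice), were called at all 3 doses. The quinone reductase Nqo1 was called at D3 (0.59), whereas Tiparp, an ADP-ribosyltransferase, was not called (0.10, 0.16 and 0.10 by its brighter probe, and -0.27, 0.02 and -0.13 by the other). Also not called were the glucuronosyltransferases Ugt1a6a (0.03 at D3) and Ugt1a6b (0.003 and -0.08 for its 2 probes), near-identical genes whose signals are uncertain, the glutathione transferase Gsta2 (0.13) and the transcription factor Nfe2l2 (0.17). In all, 2, 3 and 4 of 11 tested probes of the battery were called higher at D1, D2 and D3 and 0 lower, where 0.594%, 0.436% and 1.21% of all probes were called higher. The median log2 fold change of the 11 probes at D3 was 0.13. Cyp1a2, Ugt1a7c and Gsta1 had no tested probe.

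The difference from Aldh3a1 was tested within mice for all 9 tested genes of the battery, as the log2 ratio of the gene minus that of the second Aldh3a1 probe in each mouse. The brightest probe of each gene and a 2-sided exact permutation test over mice were used, with Benjamini-Hochberg adjustment over 27 tests. At D3, 5 of 9 genes passed. The change of Cyp1a1 exceeded that of Aldh3a1 by 4.07, that of Cyp1b1 by 3.14 and that of Ahrr by 2.30 (exact p = 0.00794, the smallest the 9 mice allow, adjusted 0.0268). Nqo1 exceeded it by 1.05 and Gsta2 by 0.59 (exact p = 0.0159, adjusted 0.0429). The other 4 genes did not pass, with differences of 0.63 for Nfe2l2, 0.56 for Tiparp, 0.49 for Ugt1a6a and 0.46 for Ugt1a6b (exact p = 0.0873 to 0.159). At D1 only Cyp1b1 (1.59) and Ahrr (1.43) passed, and at D2 also Cyp1a1 (3.12). For Gsta2 the difference rests mostly on Aldh3a1, as Gsta2 itself changed by 0.13 and Aldh3a1 by -0.46, neither called. The test was added after the values had been seen. Cyp1a1, Cyp1b1 and Ahrr were by then known to lie apart from D0 at D3, so their p-values only describe the differences.

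**Figure D2:**
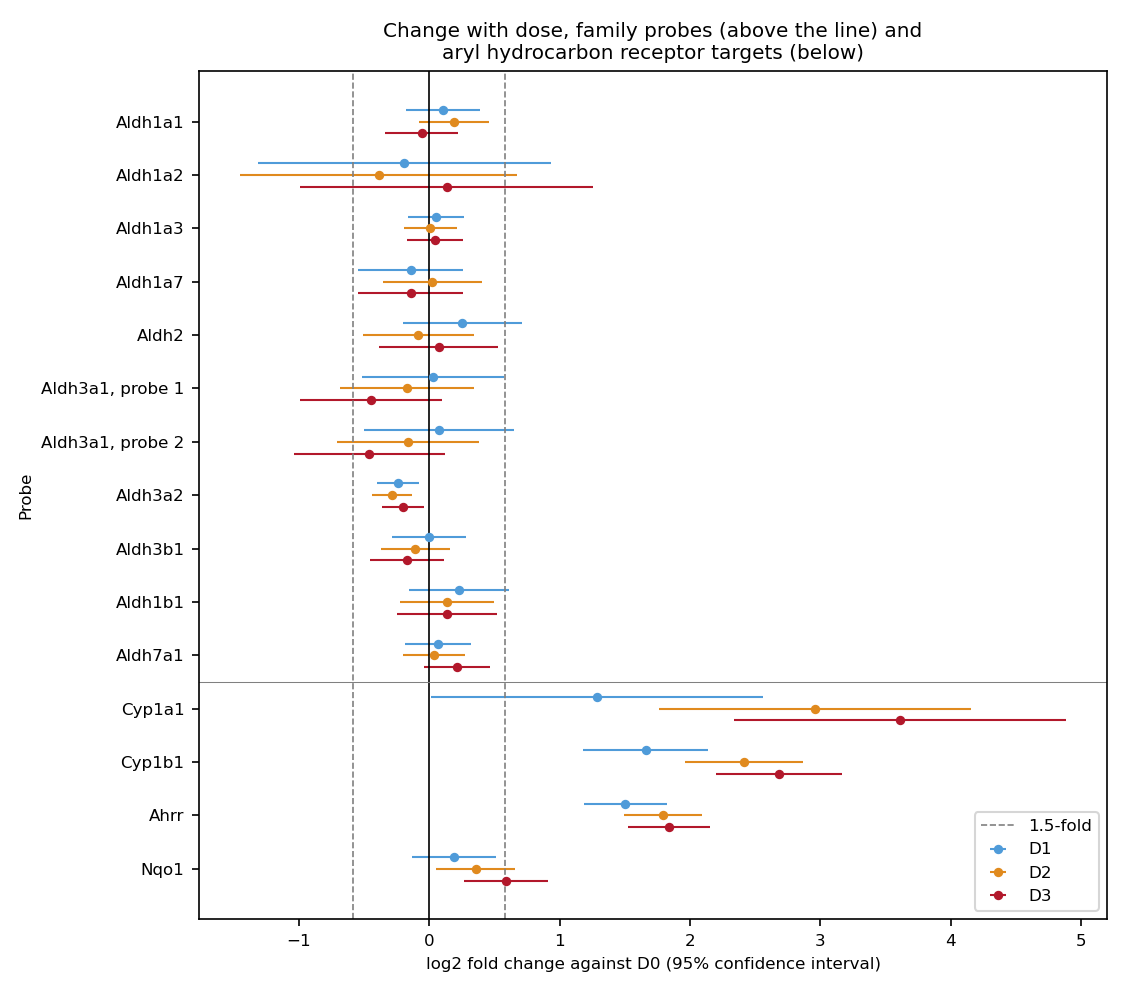
Log2 fold change against D0 (horizontal axis) with its 95% confidence interval for each family probe, above the line, and for the 4 AHR battery genes called at D3, below it, at D1, D2 and D3. Dashed lines mark 1.5-fold either way. The family's points lie between -0.46 and 0.26, while Cyp1a1 reaches 3.61 at D3.

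Aldh3a2, the fatty aldehyde dehydrogenase of the endoplasmic reticulum whose loss causes Sjögren-Larsson syndrome, was the steadiest member and the closest to a call. Its probe (NM_007437) read 1.33, 1.33, 1.58, 1.46 and 1.47 in D0. It read 1.18, 1.26, 1.16 and 1.17 in D1 and 1.27, 1.32, 1.13 and 1.20 in D3. In D2 it read 1.11, 1.35, 1.18, 1.02 and 1.06. Every D1 and D3 mouse lay below every D0 mouse, and D2 overlapped D0 through mouse 26 alone. Of all tested probes, 4.2% had every D1 mouse and 7.17% had every D3 mouse below D0. Within slides the difference was smaller on slide 1 (-0.11, -0.06 and -0.04 at D1, D2 and D3) than on slide 2 (-0.36, -0.48 and -0.32), and on slide 3 it was -0.30 at D1 and -0.35 at D2.

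The changes of Aldh3a2 were -0.24 ± 0.08 (SE) at D1, -0.29 ± 0.07 at D2 and -0.20 ± 0.08 at D3. The limma adjusted p was 0.0771, 0.0445 and 0.0953, and the F test over the 3 doses gave 0.0556. The F test passed with slide as a block, with the authors' own log2 ratios and without D2 mouse 26. At D2 the probe passed the adjusted p, as 2.09% of all probes did (4.77% at D1), but its 0.82-fold change was short of 1.5-fold and its interval, -0.44 to -0.13, held no change of that size. It did not differ detectably between doses, with 0.08 for D3 minus D2 (limma adjusted p = 0.729) and -0.04 for D2 minus D1 (0.902). The adjusted p at D2 was lost in 8 of 13 other settings, among them without mouse 23 (0.0804). In 7 of the 8 the change itself was -0.29 to -0.25, and under median centring it was -0.11 (0.933). With 1 mouse left out at a time it passed in 5 of 18 cases, and the limma adjusted p ran from 0.0217 without D2 mouse 26 to 0.126 without D0 mouse 3.

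Class 1A members make retinoic acid from retinaldehyde. Aldh1a1 (NM_013467), which is found in airway epithelium, read 6.04 to 6.86 in D0, 6.45 to 6.73 in D1, 6.43 to 6.94 in D2 and 6.33 to 6.56 in D3. Its D0 mean lay 89.6-fold above the reference, and its changes were 0.10, 0.19 and -0.06. Aldh1a7 (NM_011921), the rodent paralog with little activity on retinaldehyde, lay 56.9-fold above the reference in D0, with changes of -0.14, 0.02 and -0.14. The groups overlapped in every comparison of both genes. Aldh1a3 (NM_053080), which makes retinoic acid in nasal and other epithelia, was near background. It was well above background in red in 13 of 18 mice, only 1 of them in D3, and in green in 0, so its changes of 0.05, 0.01 and 0.05 rest on dim signal.

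Aldh1a2 (NM_009022), the main retinoic acid enzyme of the embryo and of mesothelium, was the most variable member. It read 3.44, 2.46, 2.37, 0.30 and 3.22 in D0 and 1.56, 2.89, 1.30 and 2.93 in D1. It read 0.80, 2.28, 2.50, 2.88 and 1.40 in D2 and 2.22, 2.75, 1.94 and 3.07 in D3. The extremes, 8.82-fold apart, were both D0 mice, and the dose groups lay within that range. Its change was -0.19, -0.39 and 0.14, and the D3 interval of -0.99 to 1.26 left room for a change of more than 1.5-fold either way.

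The mitochondrial and other members did not separate the groups either. Aldh2 (NM_009656), the main acetaldehyde dehydrogenase, gave 0.26, -0.08 and 0.07, with limma adjusted p of 0.567, 0.908 and 0.875. Aldh1b1 (NM_028270), a mitochondrial relative of Aldh2, gave 0.23, 0.14 and 0.14 and was well above background in 13 of 18 mice. D1 mouse 22 carried the D1 value, at 0.56 against -0.68 to -0.25 in the other D1 mice. Without it the D1 change was -0.04. Aldh3b1 (NM_026316), which acts on medium and long chain aldehydes, gave -0.004, -0.11 and -0.17, with 0.467 for the last. Aldh7a1 (NM_001127338), which works in lysine breakdown and osmotic defence, gave 0.07, 0.04 and 0.21, with a limma adjusted p of 0.277 for the last. Its untested probe (NM_138600) was well above background in 1 D0 and 1 D3 mouse.

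Genes around the family were described from lists. Of the remaining aldehyde dehydrogenases, 10 of 11 genes were tested (not Aldh3b2), and 0 of their 11 probes were called at any dose. At the adjusted p alone, D3 had 1 higher and 2 lower, where 12.4% of all probes passed. These were Aldh4a1 of proline breakdown (0.39, limma adjusted p = 0.00278), Aldh8a1 (-0.35, 0.0213) and Aldh3b3 (-0.34, 0.00792). The retinoid list of uptake, oxidation, breakdown and receptor genes had 0 of 27 tested probes called at any dose, with 0 higher and 3 lower at the adjusted p alone at D3, where 6.37% of all probes were lower. The 3 were Crabp1 (-0.39), Rdh12 (-0.38) and Fabp5 (-0.34). Cyp26b1, which breaks down retinoic acid, had the largest estimates of the list, -1.59 at D1 and -2.06 at D2, with limma adjusted p of 0.174 and 0.0891, and was at -0.44 in D3.

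The aldehyde-handling list of alcohol dehydrogenases, aldehyde oxidases, aldo-keto reductases and carbonyl reductases, with the glutathione transferase Gsta4, had 0 of 25 probes called. Its median log2 fold change was 0.11, 0.06 and 0.20, against -0.002 for all probes at D3. At the adjusted p alone 4 of its 25 probes were higher and 1 lower at D3, where 12.4% of all probes passed, 6.37% of all being lower. The 4 were Akr1c14 (0.58, limma adjusted p = 0.00412, just under 1.5-fold), both probes of Akr1b10 (0.30 and 0.36) and Akr1b8 (0.38), all aldo-keto reductases, and Akr1b7 was lower (-0.42). Of the NRF2 list of antioxidant genes, 2, 2 and 4 of 22 probes were called higher and 0 lower, against 0.594%, 0.436% and 1.21% of all probes called higher. Both probes of Ephx1, the microsomal epoxide hydrolase, were called at all doses (1.41 and 1.38 at D3). At D3 Osgin1 (0.62) and Nqo1, which the AHR list also holds, joined them.

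Spread between mice of a group was the larger feature of the family. The SD within dose groups was 0.93 for Aldh1a2, more than that of 99.8% of tested probes, and 0.44 and 0.47 for the probes of Aldh3a1. Aldh2 (0.37), Aldh1a7 (0.32) and Aldh1b1 (0.31) followed. The median SD of all probes was 0.15, which 9 of 11 member probes exceeded. Aldh1a3 lay just under it, and Aldh3a2, at 0.099, had only 8.40% of all probes below it.

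**Figure D3:**
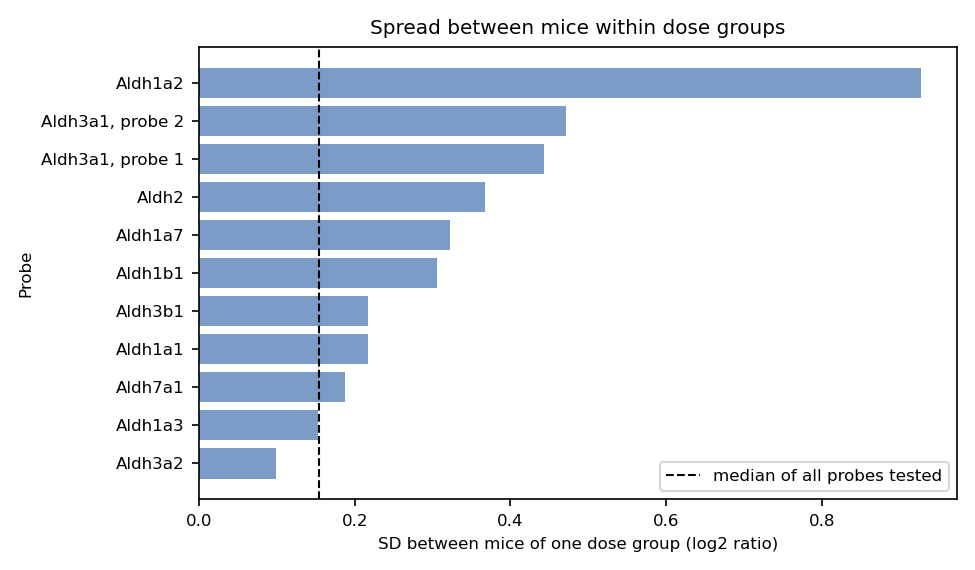
SD of the log2 ratio between mice of one dose group (horizontal axis) for the 11 tested family probes, with the median of all 30961 tested probes as a dashed line. Aldh1a2 stands at 0.93 and Aldh3a2 at 0.099, against a median of 0.15.

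Cell type markers were compared with the members across mice, since RNA came from random sections. In whole lung, fewer cells of a type and less RNA per cell cannot be told apart. The mean log2 ratio of each of 13 marker lists was set against each of the 10 members, which made 130 relations over 18 mice. By Pearson's r 9 had a Benjamini-Hochberg adjusted permutation p of at most 0.05, and 7 of them also by Spearman's rho.

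Aldh1a2 followed the mesothelial markers (Msln, Upk3b, Lrrn4, Wt1, Upk1b, Gpm6a and Rspo1), genes of the membrane that covers the lung. Over 18 mice r was 0.981 and rho 0.992, each with a permutation p of 1e-05, the smallest that the permutations can give (adjusted 0.00065 and 0.0013). Without the 2 mice farthest from the median marker level r was 0.983. It was 0.980 with the group means removed, 0.979 with the slide means removed, 0.974 on slide 1 and 0.973 on slide 2. Each of the 7 markers alone gave an r of 0.861 to 0.983. D0 mouse 4 had the lowest marker mean (-0.40) and the lowest Aldh1a2 (0.30), and D0 mouse 1 had the highest of both (1.82 and 3.44). The marker mean covered -0.40 to 1.82 in D0, -0.08 to 1.44 in D1, -0.33 to 1.28 in D2 and 0.52 to 1.60 in D3, and 0 of the 7 marker probes were called at any dose.

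Aldh1a7 followed the 10 probes of the ciliated cell markers, with r = 0.894 and rho = 0.835 (permutation p = 1e-05 and 6e-05, adjusted 0.00065 and 0.0026). The value was 0.812 without the 2 farthest mice, 0.834 with the slide means removed, 0.677 on slide 1 and 0.903 on slide 2. Single markers gave 0.446 to 0.925, with Foxj1, the master regulator of motile cilia, at 0.541. Aldh1a7 also went with alveolar type 2 markers (r = 0.808, rho = 0.827, adjusted permutation p = 0.00292 and 0.0026) and endothelial markers (r = 0.741, rho = 0.785, adjusted permutation p = 0.00888 and 0.00585). With the slide means removed these 2 were 0.397 and -0.06. On slides 1 and 2 the alveolar type 2 relation was 0.176 and 0.804, and the endothelial one -0.267 and 0.308. Aldh2 was lower where these markers were higher, at -0.674 with alveolar type 2 and -0.705 with endothelial markers, and both were -0.19 with the slide means removed. On slides 1 and 2 the former was -0.372 and -0.044 and the latter -0.541 and 0.222. Past the adjusted p by Pearson's r alone were Aldh1a2 with ciliated markers (-0.767) and Aldh1b1 with alveolar type 1 markers (-0.651).

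Aldh3a1 followed the mean of 7 club cell probes, with r = 0.815 and rho = 0.754 (permutation p = 9e-05 and 0.00064, adjusted 0.00292 and 0.0139). It was 0.711 without the 2 farthest mice and 0.901 with the slide means removed. The list was not uniform, however. Sult1d1 (0.882), Gabrp (0.821) and Scgb3a1 (0.678) tracked Aldh3a1, while the defining club cell genes Scgb1a1 (0.009) and Cyp2f2 (0.161) did not share it. The mean of the club list was 3.55 to 4.69 in D0 and 3.61 to 4.30 in D3. Scgb1a1 and Cyp2f2 gave -0.36 and -0.37 at D3, neither called, and 1 of the 7 probes was called there (Krt15, 0.89). Their part in the D3 value of Aldh3a1 was not tested.

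**Figure D4:**
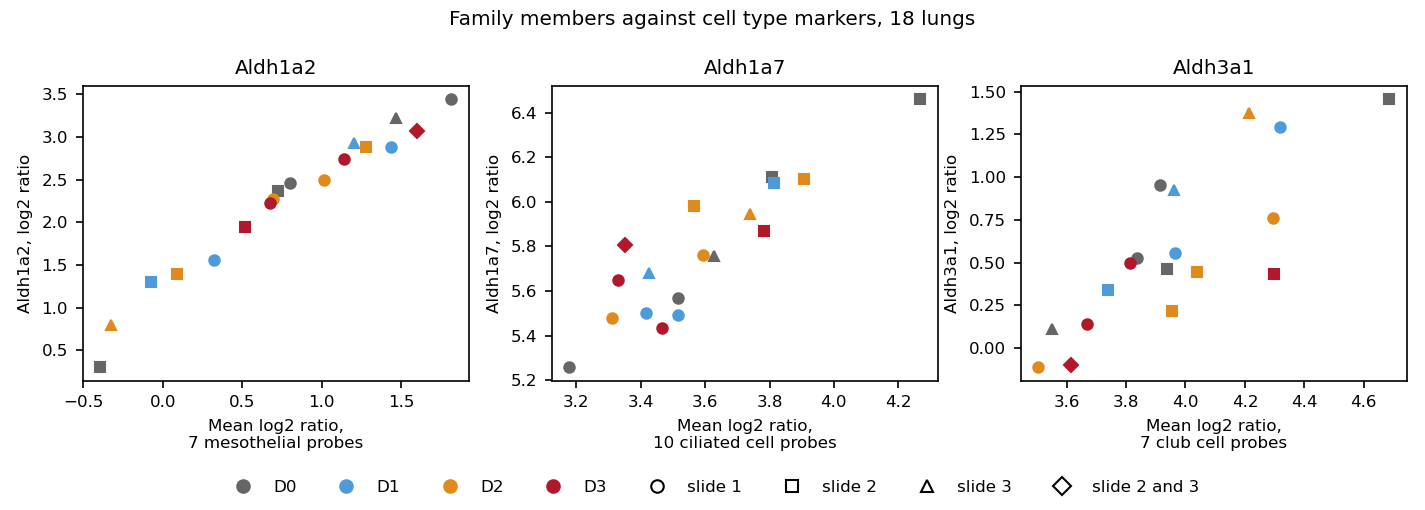
Log2 ratio of Aldh1a2, Aldh1a7 and Aldh3a1 (vertical axes) against the mean log2 ratio of mesothelial, ciliated cell and club cell marker probes (horizontal axes) in 18 mice. Colours are dose groups and shapes are slides, with mouse 35 measured on slides 2 and 3. The mice of all doses lie along one line for Aldh1a2 (r = 0.981), and r is 0.894 and 0.815 in the other panels.

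The genes most like each member over the 18 mice, by Pearson's r to its brightest tested probe, were named after the values had been seen. They are a description with no test. For Aldh1a2 they were Upk3b (0.983), Wt1 (0.981) and Msln (0.970), which are also on the mesothelial list. For Aldh1a7 they were Hp (0.958), Cib3 (0.956) and Clic6 (0.955), and for Aldh3a1 Capn13 (0.911), Sult1d1 (0.882) and Tff2 (0.872). Aldh1b1 was most like Bves (0.886), Zfp106 (0.877) and Perm1 (0.872), and Bves and Perm1 are known from striated muscle. For Aldh3a2 no gene exceeded 0.785 (Rab5b). The remaining members had closest values between 0.782 (Aldh1a3 with Itga2b) and 0.917 (Aldh2 with Tmem160).

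Cardiac muscle markers fell into separate clusters of mice, so Pearson's r is not given for them. None of their relations with the members passed the adjusted p. By Spearman's rho the highest were Aldh1b1 (0.631, adjusted permutation p = 0.0763) and Aldh3a1 (0.608, adjusted permutation p = 0.0871). The mean of the cardiac markers was 0.34 to 0.44 in 3 mice (24, 28 and 35) and 1.97 to 4.23 in the others. Mouse 22, with the highest cardiac mean (4.23), was also the mouse with the highest Aldh1b1. The 3 mice with low cardiac means were at -0.68, -0.44 and -0.61 for Aldh1b1. Mice 5, 25 and 23, with cardiac means of 2.54, 2.65 and 3.15, were as low, at -0.64, -0.62 and -0.55.

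The slides mostly held different mice, so slide and mouse cannot be told apart. With groups in the model, 3 of 11 member probes differed between slides at a limma adjusted p of at most 0.05. This lies near the 17% of all probes that did so. Aldh1a7 averaged 5.52, 6.09 and 5.80 on slides 1, 2 and 3 (0.00125). Aldh2 averaged 1.22, 0.68 and 0.79 (0.0159), and Aldh7a1 0.47, 0.80 and 0.46 (0.00323). With slide as a block, 0 of 11 member probes were called at each dose, and Aldh3a2 passed the F test. The share of all probes called in that fit is not given.

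Some markers of other cell types were called. Of all tested probes 0.594%, 0.436% and 1.21% were called higher and 0.465%, 0.191% and 1.23% lower at D1, D2 and D3. Of 8 neutrophil probes 1, 1 and 3 were called higher and 0 lower. At D3 these were S100a8 (1.77), Retnlg (1.30) and S100a9 (0.86), while Csf3r was at -0.46 (limma adjusted p = 0.00654, under 1.5-fold). Of 10 alveolar macrophage probes 0, 1 and 2 were called lower and 0 higher. At D3 these were Krt79 (-1.40) and Fabp1 (-0.94), and at the adjusted p alone Pparg (-0.48) and 1 of 2 Siglecf probes (-0.50) were lower too. In all 9 of the 10 were below 0 at D3, with a list median of -0.57, and the exception was Marco (0.94, limma adjusted p = 0.0745). The mean of the list was 3.37 to 3.66 in D0, 3.20 to 3.73 in D1, 2.84 to 3.35 in D2 and 2.93 to 3.18 in D3. D2 and D3 thus did not overlap D0, with the called Krt79 and Fabp1 part of the mean. Of all tested probes, taken singly, 4.11% at D2 and 14.6% at D3 did not overlap D0. Of 9 lymphocyte probes only Gzma was called, lower at each dose (-3.07 at D3). Klrb1c, also of natural killer cells, was lower at the adjusted p alone at D3 (-0.57, limma adjusted p = 0.00571), and Cd3g, of T cells, was at 0.44 (limma adjusted p = 0.0720). Of 10 fibroblast probes 1 was higher and 1 lower at D3, of 9 endothelial probes 1 was higher at D1 and at D3, and of 7 adipocyte probes 1 was lower at D3. Among ciliated, mesothelial, alveolar type 1, alveolar type 2, cardiac and stratified epithelium markers 0 probes were called at any dose. The medians of these 6 lists at D3 were -0.19, 0.14, -0.17, -0.32, -0.14 and -0.22. At the adjusted p alone, 2 alveolar type 2 probes (of Abca3, -0.48, and of Sftpb, -0.36) and 1 stratified epithelium probe were lower at D3. Of all probes, 6.37% were lower by that rule. The mean of the stratified epithelium list was -0.15 to -0.04 in D0 and -0.39 to -0.25 in D3, with no overlap. The part of these markers in the members' values was not tested.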

How the data were processed

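Lung RNA of 18 mice was measured on 19 Agilent arrays with 2 colours. The scanner files, as deposited, give the intensity of each spot, not yet normalized, and a deposited series table gives log2 ratios that the authors normalized. Following the study, median signals were used with no background subtracted, and loess (span 0.3, control and outlier spots at weight 0) was run within each array before spots of a probe were averaged. These ratios correlated with the deposited log2 table at 0.995 to 0.998. RefSeq identifiers gave gene symbols (21465 of 22765 matched). A probe was tested where red was well above background in at least 4 mice of 1 group. A single limma model (version 3.58.1, R 4.3.3) held all 4 groups, after being tested on simulated data. MAANOVA, the study's package, was not installed. Correlations used 100000 permutations. The number of arrays limits the precision, and without a dye swap dye bias remains in the ratios.

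The members, lists and tests were chosen with earlier results of these data known. Every probe of every member is reported. From each pathway list up to 4 called probes were to be named by their change at D3, along with Cyp1a1, Cyp1b1, Nqo1, Tiparp, Scgb1a1 and Cyp2f2, and the 3 genes most like a member for members called. Other genes were named after their values were seen. The alternatives were other signals, normalizations and filters, slide as a block, either array of mouse 35, mouse 23 left out or counted in D1, and each mouse left out.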

Additional observations from a re-analysis of the deposited data

Results flagged for a closer look

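In 44 sets of 4 or 5 mice (11 probes in 4 groups) a single highest or lowest mouse stood apart in 2, by Dixon's test at 95%. Chance gives about 1 in 20. Aldh1a3 in D2 mouse 26 was at 0.47, with the next D2 mouse at 0.23. Aldh2 in D0 mouse 2 was at 1.20, with the next D0 mouse at 0.86.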

How the results depend on the processing

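The count of member probes called stayed at 0 at each dose, between doses and in the trend under every alternative run. The F test over the 3 doses called 1 member, Aldh3a2, with the deposited series table, with slide as a block and without D2 mouse 26, so leaving out a mouse gave 0 to 1. The sign of small changes was less stable, none of them called. Median centring in place of loess turned Aldh1a1 at D3 to 0.18, Aldh1a2 at D1 to 0.052, Aldh1a7 at D1 and D3 to 0.13 and 0.036, Aldh2 at D2 to 0.15, both probes of Aldh3a1 at D2 to 0.056 and 0.082, and Aldh3b1 at the 3 doses to 0.32, 0.12 and 0.045. All of these moved upward under median centring, as did Aldh3a2 at D2 and Aldh3a1 at D3, so sizes depended on the normalization as well as signs. Processed signals turned Aldh1a7 at D2 to -0.055. The red channel alone turned Aldh1a1 at D3 to 0.11, Aldh1a3 at D3 to -0.00043 and Aldh1a7 at D1 to 0.079. Counting mouse 23 in D1 turned Aldh3b1 at D1 to 0.056 and took Aldh3a2 at D1 past the adjusted p (-0.26, limma adjusted p = 0.0486). The cause was not tested. With 1 mouse left out at a time, these changes spanned 0: Aldh1a1 at D1 (-0.0077 to 0.20) and D3 (-0.17 to 0.035), Aldh1a2 at D1 (-0.70 to 0.099) and D3 (-0.38 to 0.41), Aldh1a3 at D2 (-0.040 to 0.041) and D3 (-0.074 to 0.13), Aldh1a7 at D1 (-0.29 to 0.016), D2 (-0.12 to 0.18) and D3 (-0.28 to 0.016), Aldh2 at D2 (-0.21 to 0.11) and D3 (-0.049 to 0.17), Aldh3a1 at D1 (-0.15 to 0.20 and -0.095 to 0.26 by probe) and, by the second probe, at D2 (-0.38 to 0.023), Aldh3b1 at D1 (-0.11 to 0.053), Aldh1b1 at D1 (-0.039 to 0.37), and Aldh7a1 at D1 (-0.0023 to 0.12) and D2 (-0.029 to 0.092). Leaving aside omitted mice, 420 of the member values and relations kept their direction and side of the threshold, 15 turned, 8 lost it and 1 gained it. The marker relations ran over 0.981 to 0.991 for Aldh1a2, 0.833 to 0.961 for Aldh1a7 and 0.707 to 0.884 for Aldh3a1. Dim signal limits Aldh1a3, Aldh1b1 and the untested probe of Aldh7a1. No paired analysis was possible because the groups share no replicate numbers, so mice could be blocked by slide but not paired.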
